A study of Mus musculus with 8 samples.

Results

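The genes described here repress chromatin in 3 ways. Ezh1, Ezh2, Eed and Suz12 encode the core of Polycomb repressive complex 2 (PRC2), Hdac1 and Hdac2 encode histone deacetylases, and Dnmt1, Dnmt3a, Dnmt3b and Uhrf1 encode the DNA methylation machinery. They were listed by name, with earlier results of these data in view, and they are 10 of the 24539 genes in the table of read counts. All 10 passed the filter on low counts that left 13459 genes for testing, and their lowest count in any library was 64, for Dnmt3b.

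Nephron progenitors are the kidney mesenchyme cells that form nephrons, and here they were sorted from mouse kidneys at E18.5. All groups carried Six2GFPcre, a transgene that makes a fusion of green fluorescent protein and Cre recombinase in these cells, and they differed in Smo, a membrane protein that relays the Hedgehog signal. There were 4 groups of 2 libraries, named KO (Smo c/c), Het (Smo c/+), WT (Smo +/+) and SmoM2 (Rosa26 SmoM2/+ with Smo +/+), where c is a conditional allele that Cre can recombine and SmoM2 is an active form of Smo. Cre acts in cells that make Six2 and in their descendants, so other kidney cells keep their alleles. The labels do not say whether the libraries of a group came from separate embryos or from pools. The p-values therefore measure only the spread between these samples, which may be technical.

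PRC2 places methyl groups on a lysine of histone H3, a mark of repressed genes, and Ezh2 and Ezh1 are its alternative catalytic subunits. Histone deacetylases remove acetyl groups from histone tails as parts of larger corepressor complexes. DNA methyltransferases copy methylation onto new strands after replication or place it on unmethylated DNA, and in nephron progenitors both Ezh2 and Hdac1 with Hdac2 are known from mouse genetics to sustain the progenitor pool.

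Total counts ranged from 4422305 to 10305398 per library and were lowest in the KO-labelled libraries. The level of Smo checks the labels. In CPM, a read count scaled to a common library total, Smo was at 12.1 ± 1.39 (SD, n = 2) under the KO label, 19.2 ± 6.72 under Het, 369 ± 8.43 under WT and 616 ± 17.1 under SmoM2. The Het-labelled level goes against a label with 1 wild-type allele, so libraries are called by their labels throughout. Counts of Y-linked genes and Xist showed that both KO-labelled libraries were male and both Het-labelled libraries female, with 1 of each in the other groups. Label and sex therefore go together in KO- against Het-labelled libraries. Progenitor markers summed to 4347 and 3819 CPM under the KO label and to 5159 and 4621 CPM under Het. They summed to 3523 and 3128 CPM under WT and to 3437 and 3285 CPM under SmoM2, below all KO- and Het-labelled libraries. Of this list, Cited1, Meox1 and Itga8 were called higher in KO- against WT-labelled libraries. Six2, Osr1, Sall1, Eya1 and Crym were not, at log2 changes of 0.42, 0.72, 0.14, -0.21 and -0.52. Six2 and Sall1 joined those called higher in Het- against WT-labelled libraries. Osr1, Eya1 and Crym were not called there, at 1.14, 0.043 and -0.42. Endothelial markers reached at most 4.87 CPM. Stromal markers ranged from 75.9 to 657 CPM and collecting duct markers from 22.8 to 68.5 CPM. The collecting duct sums were 57.5 and 68.5 CPM under SmoM2 and at most 38.2 CPM elsewhere. Wnt11 of this list was called in KO-, Het- and SmoM2- against WT-labelled libraries, at log2 changes of -2.05, -3.14 and 1.75. Ret was called lower in the first of these (-2.82) and not in the others. Hoxb7, Krt8 and Cdh16 were called in none of them. Foxd1, a stromal marker, was 22.3-fold lower in KO- and 9.83-fold lower in Het- than in WT-labelled libraries. The other tested stromal markers were not called in either comparison. In KO- against WT-labelled libraries the log2 changes of Col1a1, Col3a1 and Lum were 0.87, 0.29 and 0.12. Those of Pdgfra and Pdgfrb were -0.31 and -0.34. The 6 erythroid markers, 1 or 2 of which were at 0 in each library, summed to between 13.7 and 45.1 CPM under the KO and Het labels and to between 2.77 and 7.87 CPM under the others. Immune markers summed to 47.3 and 43.8 CPM under the Het label and to between 13.9 and 31.4 CPM in the other 6 libraries. Of the Het-labelled sums, Cd68 alone made up 44.7 and 41.2 CPM. The other tested immune marker, Csf1r, had a log2 change of -0.83 in Het- against WT-labelled libraries and was not called. Markers of early nephron differentiation summed to 1380 and 1697 CPM in the KO-labelled libraries and to between 486 and 793 CPM in the others. Fgf8 and Pax8 of this list were nonetheless called higher in Het- against WT-labelled libraries, at log2 changes of 3.46 and 0.79. Jag1 was at 0.44 there, and Wnt4, Lhx1, Ccnd1, Lef1 and Cdh6 lay between -1.02 and -0.16, none of them called. In a sorted bulk sample, fewer cells of a type and less RNA per cell cannot be told apart.

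Changes were tested with edgeR's quasi-likelihood test on counts, with p-values adjusted over all 13459 genes by the Benjamini-Hochberg method, and a change was called at an adjusted p under 0.05. Between KO- and WT-labelled libraries Ezh2 and Uhrf1 were called higher under the KO label, and the other 8 members were not called. These 2 of 10 stand beside 23.0% of all tested genes called in either direction, with 11.6% called higher and 11.4% lower. Between Het- and WT-labelled libraries Dnmt1 and Uhrf1 were higher and Suz12 lower in the Het-labelled libraries. These 3 of 10 stand beside 25.3% of all tested genes, with 13.1% called higher and 12.2% lower. Between KO- and Het-labelled libraries Dnmt3a was lower in the KO-labelled libraries, which is 1 of 10 beside 9.43% of all genes, with 4.33% called higher and 5.10% lower. In each of these comparisons the members' share was near that of all genes, so the count says nothing particular about this group of genes.

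Between SmoM2- and WT-labelled libraries edgeR and DESeq2 called none of the 10 members, and none had an unadjusted edgeR p under 0.05. Of all genes 0.223% were called and 7.70% had such an unadjusted p. The largest of these 10 differences was that of Dnmt3b, at -0.29 on the log2 scale (95% interval -0.74 to 0.15). Median log2 changes over the 10 members were 0.0078 in KO- against WT-labelled, 0.016 in Het- against WT-labelled, -0.038 in SmoM2- against WT-labelled and 0.022 in KO- against Het-labelled libraries. Over all tested genes they were 0.035, -0.017, 0.0031 and 0.019. Groups did not overlap for 5 members in KO- against WT-labelled libraries, beside 62.0% of all genes, and for 5 in Het- against WT-labelled libraries, beside 66.9%. They did not overlap for 1 in SmoM2- against WT-labelled libraries, beside 35.8%, and for 4 in KO- against Het-labelled libraries, beside 56.9%. A test over all 4 groups called Ezh2 (edgeR adjusted p 0.00527) and Suz12 (adjusted p 0.0126), which is 2 of 10 beside 41.0% of all genes. The 3 comparisons with WT-labelled libraries share those libraries, so their changes are not independent.

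**Figure D1:**
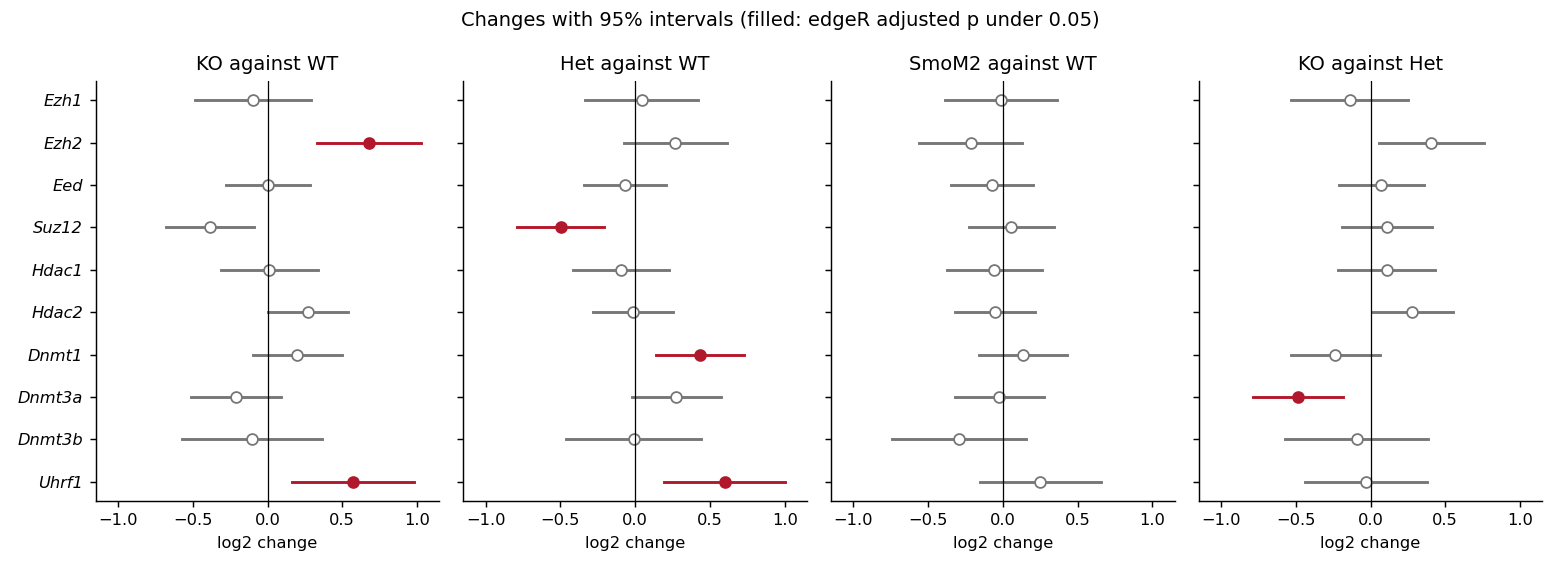
Log2 change of each of the 10 genes in 4 comparisons, with 95% intervals as bars and filled points for an edgeR adjusted p under 0.05. Filled points are Ezh2 and Uhrf1 in KO against WT, Suz12, Dnmt1 and Uhrf1 in Het against WT, and Dnmt3a in KO against Het, and in SmoM2 against WT all 10 points are open.

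Between genes, levels can be compared only per length, here as CPM per kilobase of the gene length in the authors' table. In the WT-labelled libraries the order was Hdac2 at 71.7 ± 3.72 (SD, n = 2), Hdac1 at 55.4 ± 8.24, Uhrf1 at 53.6 ± 17.7, Dnmt1 at 49.2 ± 7.16 and Dnmt3a at 39.3 ± 2.84 CPM per kilobase. Below these came Eed at 32.5 ± 1.74, Ezh2 at 24.8 ± 1.79, Suz12 at 20.0 ± 2.32, Ezh1 at 18.48 ± 1.48 and Dnmt3b at 4.05 ± 0.293 CPM per kilobase. The WT-labelled libraries of Hdac1 and Uhrf1, of Uhrf1 and Dnmt1, and of Suz12 and Ezh1 overlapped, so those neighbours in the order were not parted by their spread. Hdac2 lay above 92.9% of all tested genes on this scale and Dnmt3b above 30.1%, so the de novo enzyme Dnmt3b was the least abundant of the 10 transcripts per length.

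**Figure D2:**
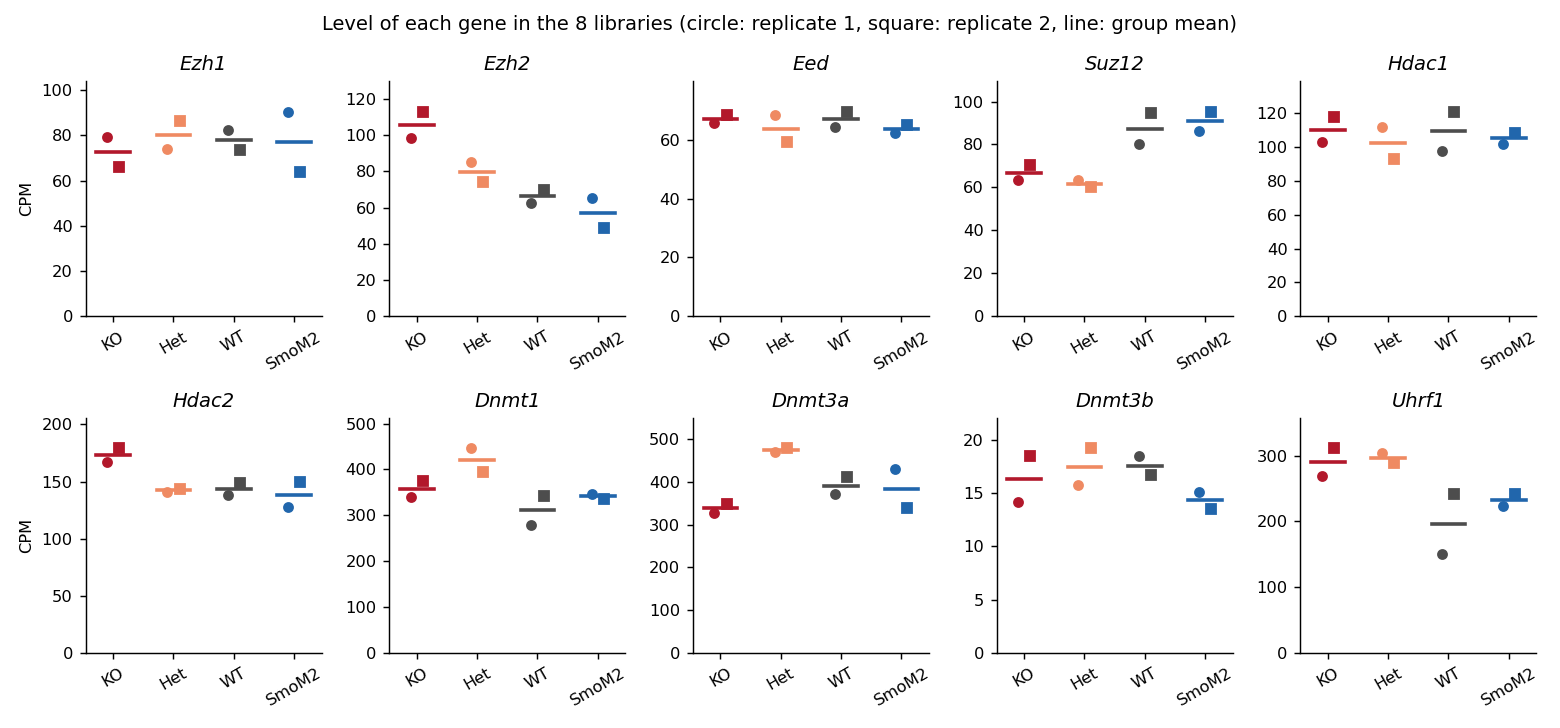
Level of each of the 10 genes in CPM, on linear axes from 0, with a circle for replicate 1, a square for replicate 2 and a line for the mean of each labelled group. Both KO-labelled libraries of Ezh2, at 98.4 and 113 CPM, lie above the other 6, and both KO- and both Het-labelled libraries of Suz12 lie below the other 4.

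Ezh2, the catalytic subunit that predominates in dividing cells, lies at chr6:47530139-47595341 on the minus strand (GRCm38). It was at 98.4 and 113 CPM under the KO label, 85.2 and 74.0 under Het, 62.8 and 69.5 under WT and 65.2 and 48.6 CPM under SmoM2. Both KO-labelled libraries were above all others, and both Het-labelled libraries were above both WT-labelled libraries. Ezh2 rose by 0.68 on the log2 scale in KO- against WT-labelled libraries (SE 0.16, edgeR adjusted p 0.0123), a 1.6-fold difference. The change was 0.57 (adjusted p 0.0652) without KO-labelled replicate 2 and 0.60 (adjusted p 0.0660) without WT-labelled replicate 1, neither called. In Het- against WT-labelled libraries it was 0.27 (95% interval -0.077 to 0.62, adjusted p 0.233), and between the KO and Het labels 0.41 (95% interval 0.058 to 0.76, adjusted p 0.125), neither called. Its exons overlap those of Gm26625 on the opposite strand, and the strand setting of the counting is not given in the sources used here, so reads of these genes cannot be told apart.

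The promoter of Ezh2 is shown because Ezh2 and Uhrf1 were the members called higher in KO-labelled libraries, and that of Suz12 because it was called lower in Het-labelled libraries. Windows from 250 bases before to 50 bases after a RefSeq transcript start (GRCm38.p6) were found for 9 of the 10 members and not for Hdac1. They were searched on both strands for TTTCGCG and TTTGGCG, letters of the kind that E2F factors of the cell cycle can bind, and for CCAAT, letters that the factor NF-Y can bind. No CCAAT match in these members overlapped a match of the other motifs, and capitals below mark all matches on either strand. The first line is 27 bases at chr6:47595011-47595037 in the first exon of Ezh2, whose motif starts 4 bases after the transcript start. The second is 125 bases upstream of it at chr6:47595059-47595183, outside annotated exons, and the third is 250 bases upstream of Suz12 at chr11:79992856-79993105. All are 5′ to 3′ on the strand of the gene, minus for Ezh2 and plus for Suz12.
Ezh2 start: ggttgctgcgTTTGGCGctcggtccgg
Ezh2 upstream: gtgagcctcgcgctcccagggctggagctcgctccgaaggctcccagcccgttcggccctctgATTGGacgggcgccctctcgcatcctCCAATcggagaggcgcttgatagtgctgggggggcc
Suz12 upstream: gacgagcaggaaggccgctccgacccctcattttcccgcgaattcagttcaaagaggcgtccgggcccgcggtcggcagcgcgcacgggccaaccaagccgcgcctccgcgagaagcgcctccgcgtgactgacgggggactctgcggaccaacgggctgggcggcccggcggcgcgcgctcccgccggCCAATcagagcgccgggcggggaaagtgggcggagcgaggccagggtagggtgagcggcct
The Ezh2 windows held TTTGGCG and CCAAT, and the Suz12 window held CCAAT and neither of the E2F-type motifs. TTTCGCG or TTTGGCG was present in windows of 3 members, Ezh2, Dnmt1 and Uhrf1, and in windows of 2.68% of the 27025 genes that have one. Over all 32851 windows the share was 2.37%. The other windows of Dnmt1 and Uhrf1 held neither of these motifs, and a gene with more windows has more room for a match. The 27025 genes include ones that were not tested for changes. CCAAT was present in windows of 5 members and of 41.1% of those genes. A match describes letters in a window and does not show that a factor binds there.

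Suz12, the subunit that holds PRC2 together, lies at chr11:79993106-80034123 on the plus strand. It was at 63.3 and 70.3 CPM under the KO label, 63.6 and 60.1 under Het, 80.2 and 94.5 under WT and 86.4 and 95.3 CPM under SmoM2. All 4 KO- and Het-labelled libraries were below all 4 WT- and SmoM2-labelled libraries. The summed erythroid markers, the summed progenitor markers and Foxd1 parted the libraries in the same way, and their part in this result was not tested. Suz12 fell by 0.50 on the log2 scale in Het- against WT-labelled libraries (SE 0.13, edgeR adjusted p 0.0191), a 1.41-fold difference. In KO- against WT-labelled libraries the value was -0.39 (SE 0.14, adjusted p 0.0588), which was not called, though it was called when genes with low counts were kept and when 10 counts were required in every library. The Het-labelled call was lost without Het-labelled replicate 1 (-0.57, adjusted p 0.0722), without Het-labelled replicate 2 (-0.47, adjusted p 0.124) and without WT-labelled replicate 2 (-0.40, adjusted p 0.119). It was also lost at -0.22 (adjusted p 0.248) after each library was freed of trends over gene length and GC content, an alternative chosen after seeing the data. Suz12 shares exon positions with Gm26563 on the opposite strand, whose reads cannot be told apart from its own.

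Eed, the subunit that reads the methyl mark, lies at chr7:89954654-89980983. It was at 65.7 and 68.5 CPM under the KO label, 68.2 and 59.2 under Het, 64.4 and 69.5 under WT and 62.2 and 65.0 CPM under SmoM2. Both KO-labelled libraries were above both SmoM2-labelled libraries and all other pairs of groups overlapped. The value in KO- against WT-labelled libraries was 0.0032 (95% interval -0.28 to 0.28, adjusted p 0.988). Ezh1, the catalytic subunit that is known from non-dividing tissues, ranged from 63.7 to 90.4 CPM, with both of those extremes in the SmoM2-labelled group. Its value in KO- against WT-labelled libraries was -0.096 (95% interval -0.48 to 0.29, adjusted p 0.726). The intervals of Eed and Ezh1 leave room for differences of up to about these bounds, so they do not show that the levels were equal. Eed overlaps exons of E230029C05Rik on the opposite strand.

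Ratios within a library do not depend on its scaling. Ezh2 to Ezh1, per length, was 1.96 and 2.69 under the KO label, 1.81 and 1.35 under Het, 1.21 and 1.496 under WT and 1.14 and 1.20 under SmoM2. The KO-labelled ratios were above all others and the Het- and WT-labelled ratios overlapped. Ezh2 to Suz12, a pair chosen after its values were seen, was 2.55 and 2.63 under the KO label, 2.20 and 2.02 under Het, 1.28 and 1.21 under WT and 1.24 and 0.837 under SmoM2. These 2 groups of labels, KO with Het and WT with SmoM2, did not overlap, and no test was made of a pair chosen this way.

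**Figure D3:**
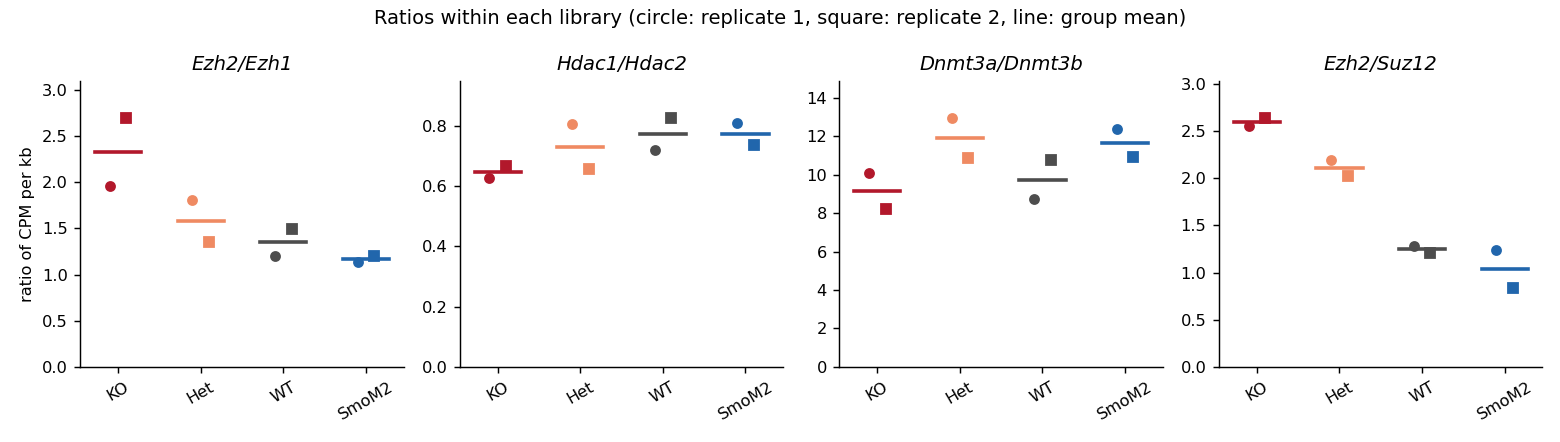
Ratios of levels per length within each library for 4 pairs of members, on linear axes from 0, with a circle for replicate 1, a square for replicate 2 and a line for the mean of each labelled group. Ezh2 to Suz12 was between 2.02 and 2.63 under the KO and Het labels and between 0.837 and 1.28 under the others, while Hdac1 to Hdac2 lay between 0.626 and 0.824 in all 8.

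PRC2 binds accessory proteins that guide it to its sites. Of 8 such partners tested, 1 was called in KO- against WT-labelled, 3 in Het- against WT-labelled and 3 in KO- against Het-labelled libraries. These are 12.5%, 37.5% and 37.5% of the list, beside 23.0%, 25.3% and 9.43% of all genes. Phf19, a Polycomb-like protein that reads another histone H3 mark, was at 77.9 and 68.7 CPM under the KO label, 115 and 123 under Het, 47.1 and 37.6 under WT and 34.7 and 35.2 CPM under SmoM2. The groups lay in the order Het, KO, WT and SmoM2, from high to low, with no overlap. Phf19 rose by 0.79 in KO- against WT-labelled libraries (SE 0.14, edgeR adjusted p 0.00345) and by 1.49 in Het- against WT-labelled libraries (SE 0.14, adjusted p 0.000104), and both calls held in each fit that left out 1 library. Epop, which links PRC2 to transcription elongation factors, was at 114 and 126 CPM under the Het label and lay between 53.3 and 74.8 in the other 6 libraries, and rose by 0.98 in Het- against WT-labelled libraries (SE 0.15, adjusted p 0.00124). Phf1, another Polycomb-like protein, was at 69.0 and 80.4 CPM under the Het label and lay between 29.6 and 53.3 in the other 6 libraries. It rose by 1.02 in Het- against WT-labelled libraries (SE 0.21, adjusted p 0.00664), and the call was lost without Het-labelled replicate 2 (0.89, adjusted p 0.0532). Between the KO and Het labels Phf19, Epop and Phf1 fell by 0.70, 0.74 and 0.81. No partner was called there without KO-labelled replicate 2, without Het-labelled replicate 1 or without Het-labelled replicate 2, with Phf19 at adjusted p 0.0659, 0.0966 and 0.0774, and Epop was not called without KO-labelled replicate 1 either (adjusted p 0.0545). Jarid2, Aebp2, Mtf2, Rbbp4 and Rbbp7 were not called in any of the 4 comparisons.

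Of 20 subunits of the second Polycomb complex, PRC1, which places ubiquitin on histone H2A, 2 were higher and 2 lower in KO- against WT-labelled libraries. In Het- against WT-labelled libraries 1 was higher and 2 were lower, and in KO- against Het-labelled libraries 3 were lower. The called shares of the list in these comparisons were 20%, 15% and 15%, beside 23.0%, 25.3% and 9.43% of all genes. Bcor, a corepressor of a variant PRC1, was at 114 and 142 CPM in the KO-labelled libraries and between 206 and 278 in the other 6. It fell by 0.96 in KO- against WT-labelled libraries (SE 0.15, edgeR adjusted p 0.00156), and the call held in each fit that left out 1 library and with sex as a covariate. Ring1, a ubiquitin ligase of the complex, rose by 0.47 in KO- against WT-labelled libraries (adjusted p 0.0255), with 121 and 105 against 75.6 and 86.9 CPM. The call of Ring1 was lost without KO-labelled replicate 1 (0.36, adjusted p 0.146), without either Het-labelled replicate (0.43, adjusted p 0.0613 and 0.0614) without WT-labelled replicate 1 (0.37, adjusted p 0.149) and with the length trend removed (0.29, adjusted p 0.126). In the 4 fits without those libraries 2 subunits were called in KO- against WT-labelled libraries. In Het- against WT-labelled libraries 1 was called without Het-labelled replicate 1 and without WT-labelled replicate 1, and in KO- against Het-labelled libraries the count was as low as 0, without Het-labelled replicate 1.

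The methyl mark of PRC2 is removed by Kdm6a and Kdm6b. Kdm6b was at 607 and 575 CPM under the Het label and lay between 347 and 506 in the other 6 libraries. It rose by 0.48 in Het- against WT-labelled libraries (SE 0.12, edgeR adjusted p 0.0143) and was lower by a log2 change of -0.73 in KO- against Het-labelled libraries (SE 0.12, adjusted p 0.00827). The first call was lost in each fit that left out 1 Het- or WT-labelled library (adjusted p 0.0502 to 0.137), and the other without Het-labelled replicate 1 (-0.70, adjusted p 0.0939). With GC and length trends removed neither was called (0.19, adjusted p 0.208, and -0.26, adjusted p 0.198). Kdm6a, which is on the X chromosome, was at 33.0 and 43.3 CPM under the KO label, 71.5 and 63.8 under Het, 53.2 and 86.9 under WT and 62.3 and 97.3 CPM under SmoM2. The female libraries were above the male libraries in the WT- and SmoM2-labelled groups. Kdm6a fell by 0.87 in KO- against WT-labelled libraries (SE 0.26, adjusted p 0.0323). With sex as a covariate the value was -0.50 (adjusted p 0.0503), which was not called. It was not called with the length trend removed (-0.65, adjusted p 0.124) or without KO-labelled replicate 1 (-0.69, adjusted p 0.203), KO-labelled replicate 2 (-1.09, adjusted p 0.0544) or WT-labelled replicate 2 (-0.51, adjusted p 0.193).

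Hdac1 and Hdac2, the catalytic subunits of the NuRD, Sin3 and CoREST corepressors, were not called in any comparison. Hdac2, at chr10:36974544-37001889, was at 167 and 179 CPM under the KO label, 141 and 144 under Het, 138 and 149 under WT and 128 and 150 CPM under SmoM2. Both KO-labelled libraries were above the other 6. The value was 0.27 in KO- against WT-labelled libraries (95% interval -0.00039 to 0.54, edgeR adjusted p 0.135) and 0.28 in KO- against Het-labelled libraries (95% interval 0.0099 to 0.55, adjusted p 0.168). Hdac1, at chr4:129516104-129542713, was at 103 and 118 CPM under the KO label, 112 and 92.8 under Het, 97.8 and 121 under WT and 102 and 108 CPM under SmoM2. Its groups overlapped, and its value in KO- against WT-labelled libraries was 0.012 (95% interval -0.31 to 0.34, adjusted p 0.960). The ratio of Hdac1 to Hdac2 per length was 0.626 and 0.667 under the KO label, 0.804 and 0.656 under Het, 0.718 and 0.824 under WT and 0.810 and 0.735 under SmoM2. The KO- and WT-labelled ratios did not overlap and the Het-labelled ratios spanned much of the range.

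Among the other 9 histone deacetylases, 1 was higher and 2 lower in KO- against WT-labelled libraries. In Het- against WT-labelled libraries 3 were higher and 1 lower. The called shares were 33.3% and 44.4%, and 22.2% in KO- against Het-labelled libraries, beside 23.0%, 25.3% and 9.43% of all genes. Hdac5, a deacetylase of class IIa that shuttles between nucleus and cytoplasm, was at 133 and 105 CPM under the KO label, 164 and 155 under Het, 214 and 226 under WT and 279 and 254 CPM under SmoM2. The groups did not overlap and lay in the order KO, Het, WT and SmoM2, from low to high. The share of all genes in this order was not counted. Hdac5 fell by 0.89 in KO- against WT-labelled libraries (SE 0.13, edgeR adjusted p 0.00136), a call that held in each fit that left out 1 library. It fell by 0.47 in Het- against WT-labelled libraries (SE 0.13, adjusted p 0.0235), a call lost without Het-labelled replicate 1 (-0.54, adjusted p 0.0752), Het-labelled replicate 2 (-0.44, adjusted p 0.135) or WT-labelled replicate 2 (-0.45, adjusted p 0.0771). Hdac6, an X-linked deacetylase of tubulin, was at 198 and 206 CPM under the KO label and 186 and 236 under the Het label and lay between 101 and 128 in the other 4 libraries. It rose by 0.70 in KO- against WT-labelled (SE 0.14, adjusted p 0.00540) and by 0.77 in Het- against WT-labelled libraries (SE 0.14, adjusted p 0.00307), and both calls held in each fit that left out 1 library and with sex as a covariate. With a score of immediate early genes (the stress score) as a covariate neither was called (0.55, adjusted p 0.169, and 0.49, adjusted p 0.480). Hdac7, also of class IIa, was at 231 and 230 CPM under the Het label and lay between 148 and 173 in the other 6 libraries, and rose by 0.57 in Het- against WT-labelled libraries (adjusted p 0.00490). Without Het-labelled replicate 1 the value of Hdac7 was 0.53 (adjusted p 0.0501), and there 1 deacetylase was called. It was 0.20 (adjusted p 0.175) with GC and length trends removed. Hdac7 and Hdac4 were the 2 called in KO- against Het-labelled libraries, at -0.48 and -0.55, and neither was called there in the fits that left out a KO- or Het-labelled library, with adjusted p between 0.0740 and 0.159 for Hdac7 and between 0.0880 and 0.180 for Hdac4.

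Of 20 subunits of the corepressors that hold Hdac1 and Hdac2, 3 were higher and 5 lower in KO- against WT-labelled libraries. In Het- against WT-labelled libraries 1 was higher and 3 were lower. The called shares were 40% and 20%, and 10% in KO- against Het-labelled libraries, beside 23.0%, 25.3% and 9.43% of all genes. Mbd3, a structural subunit of NuRD, was at 547 and 451 CPM under the KO label, 367 and 345 under Het, 281 and 288 under WT and 264 and 270 CPM under SmoM2. The groups did not overlap, and Mbd3 rose by 0.81 in KO- against WT-labelled libraries (SE 0.13, edgeR adjusted p 0.00161). Mbd2, another NuRD subunit, named after its value was seen, rose by 0.44 (adjusted p 0.0323), while Chd3 and Gatad2b of the same complex fell. Chd3, a remodelling ATPase of NuRD, was at 388 and 349 CPM in the KO-labelled and 551 and 631 CPM in the WT-labelled libraries and fell by 0.68 (SE 0.13, adjusted p 0.00446). With the length trend removed Chd3 was at -0.34 (adjusted p 0.0910) and 3 of the list were called, and with the stress score it was at -0.57 (adjusted p 0.142). Gatad2b was at 29.4 and 36.8 CPM in the KO-labelled and 61.1 and 72.8 CPM in the WT-labelled libraries and fell by 1.01 (SE 0.21, adjusted p 0.00736), a call lost without KO-labelled replicate 1 (-0.87, adjusted p 0.0742). Without that library 3 of the list were called. In Het- against WT-labelled libraries Rcor2, a CoREST subunit, rose by 0.89 (SE 0.18, adjusted p 0.00533), with 196 and 162 against 78.7 and 115 CPM. It was not called without Het-labelled replicate 1 (0.71, adjusted p 0.0595) or with GC and length trends removed (0.50, adjusted p 0.0820), and with either Het-labelled library left out, 1 subunit of the list was called. In KO- against Het-labelled libraries Mbd3 was higher by 0.49 and Chd3 lower at -0.59, and neither was called without KO-labelled replicate 1 or either Het-labelled replicate. Chd3 was also lost without KO-labelled replicate 2 and Mbd3 without either SmoM2-labelled replicate, with adjusted p over these losses between 0.0576 and 0.171 for Chd3 and between 0.0525 and 0.219 for Mbd3.

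**Figure D4:**
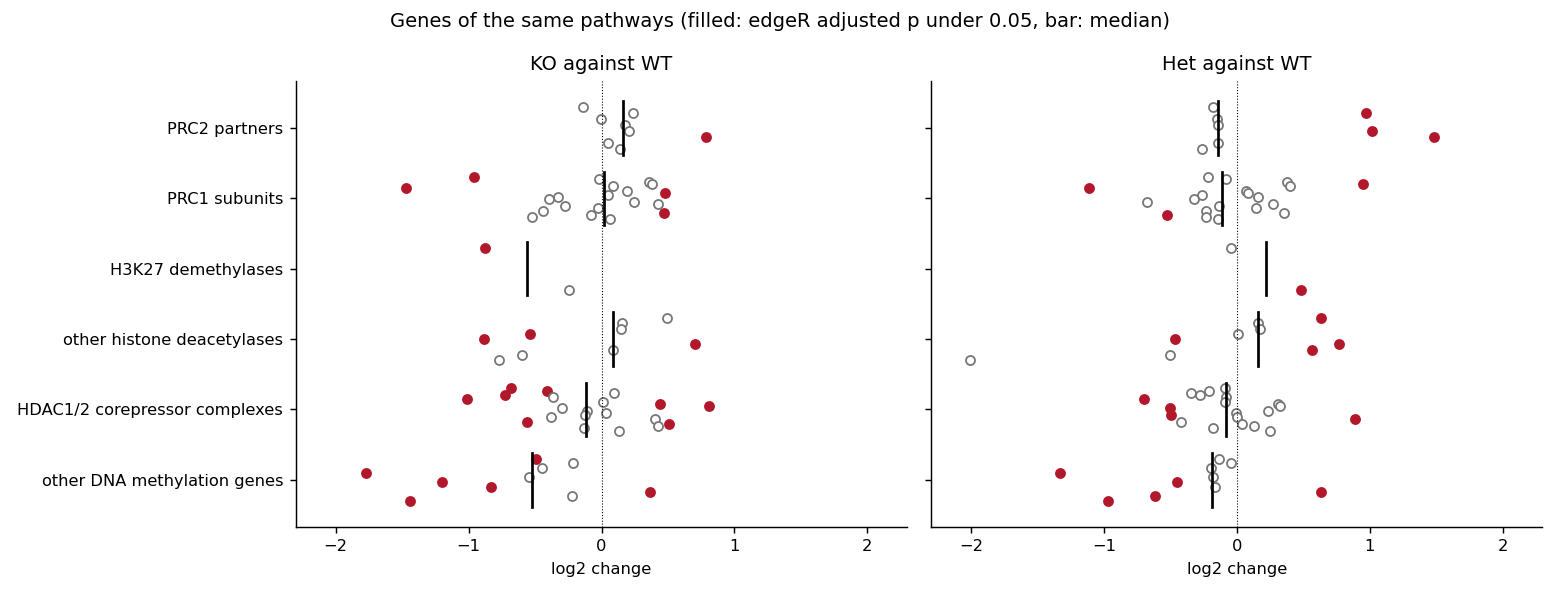
Log2 change of the genes of 6 pathway lists in KO- against WT-labelled (left) and Het- against WT-labelled libraries (right), with a point for each gene, filled for an edgeR adjusted p under 0.05, and a bar for the median of each list. Called genes lie on both sides of 0 in 4 of the 6 lists in each panel, and the median of the other DNA methylation genes is -0.52 on the left and -0.19 on the right.

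Uhrf1, the protein that binds hemimethylated DNA and brings Dnmt1 to replicated strands, lies at chr17:56303321-56323486 on the plus strand. It was at 269 and 311 CPM under the KO label, 304 and 288 under Het, 150 and 241 under WT and 223 and 242 CPM under SmoM2. WT-labelled replicate 1 stood below all other libraries. The KO- and Het-labelled libraries were above the other 4, as for the summed erythroid and progenitor markers, whose part was not tested. Uhrf1 was called higher in KO- and in Het- against WT-labelled libraries, and with sex as a covariate only the first call was kept. It rose by 0.57 in KO- against WT-labelled libraries (SE 0.19, edgeR adjusted p 0.0465), a 1.48-fold difference. In Het- against WT-labelled libraries it rose by 0.60 (SE 0.19, edgeR adjusted p 0.0354), a 1.51-fold difference. Without WT-labelled replicate 1 these values were 0.26 (adjusted p 0.264) and 0.29 (adjusted p 0.207), and neither was called. The KO-labelled call held in 1 of the 8 fits that left out 1 library and the Het-labelled call in 3 of 8. The other losses of the KO-labelled call were without KO-labelled replicate 1 (0.67, adjusted p 0.0960), KO-labelled replicate 2 (0.46, adjusted p 0.196), either Het-labelled replicate (0.53, adjusted p 0.0817 and 0.0808) and either SmoM2-labelled replicate (0.53, adjusted p 0.0734 and 0.0725). Those of the Het-labelled call were without Het-labelled replicate 1 (0.53, adjusted p 0.170), Het-labelled replicate 2 (0.62, adjusted p 0.116) and either SmoM2-labelled replicate (0.57, adjusted p 0.0544 and 0.0536).

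Dnmt1, the maintenance methyltransferase, lies at chr9:20907209-20959888 on the minus strand. It was at 340 and 374 CPM under the KO label, 446 and 395 under Het, 279 and 343 under WT and 347 and 336 CPM under SmoM2. Both Het-labelled libraries were above the other 6, and the KO- and WT-labelled libraries overlapped. The summed immune markers, progenitor markers and immediate early genes were also highest in both Het-labelled libraries, and their part was not tested. Dnmt1 rose by 0.44 in Het- against WT-labelled libraries (SE 0.13, edgeR adjusted p 0.0348), a 1.35-fold difference. With sex as a covariate it was not called there. The call held in 3 of the 8 fits that left out 1 library, and was lost without Het-labelled replicate 1 (0.31, adjusted p 0.276), Het-labelled replicate 2 (0.50, adjusted p 0.0937), WT-labelled replicate 1 (0.29, adjusted p 0.202) and either SmoM2-labelled replicate (0.41, adjusted p 0.0647 and 0.0646). In KO- against WT-labelled libraries the value was 0.20 (95% interval -0.095 to 0.50, adjusted p 0.306). After each library's trend over gene length was removed it was called there.

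The E2F-type letters of Uhrf1 and Dnmt1 are shown because these members, with Ezh2, hold them near a transcript start. The first line is 250 bases upstream of a Uhrf1 start at chr17:56304063-56304312, in an intron of the annotated gene, with a TTTCGCG that begins 185 bases before that start and CCAAT at 150 and 107 bases before it. The other lines are 27 bases of Dnmt1 at chr9:20952825-20952851 and at chr9:20952574-20952600, both in annotated exons, whose motifs begin 218 bases before and 34 bases after a transcript start. Capitals mark the motifs, and in the first Dnmt1 line they are the reverse complement CGCGAAA.
Uhrf1 upstream: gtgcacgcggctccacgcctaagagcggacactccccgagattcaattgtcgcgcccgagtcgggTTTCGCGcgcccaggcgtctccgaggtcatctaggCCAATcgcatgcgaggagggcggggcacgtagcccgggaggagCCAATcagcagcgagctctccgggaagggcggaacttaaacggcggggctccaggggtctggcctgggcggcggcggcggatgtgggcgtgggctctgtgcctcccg
Dnmt1 site before the start: tttccgcgcgCGCGAAAaagccggggt
Dnmt1 site after the start: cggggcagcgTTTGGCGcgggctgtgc

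S phase genes, which move with replication, are given beside Uhrf1, Dnmt1 and Ezh2, whose levels are known to follow the cell cycle. Of 22 S phase and proliferation genes 6 were called higher in KO- against WT-labelled libraries, beside 11.6% of all genes, and 4 in Het- against WT-labelled libraries, beside 13.1%. Their median changes were 0.42 and 0.21. Their summed level was 2742 and 3479 CPM under the KO label, 2934 and 2808 under Het, 2135 and 2829 under WT and 2467 and 2748 CPM under SmoM2, lowest in WT-labelled replicate 1 as for Uhrf1. By the root mean square distance of centred log2 CPM over the 8 libraries, the genes nearest to Uhrf1 were Mcm3, a subunit of the replicative helicase, at 0.053, and Tmem37 at 0.087, while Uhrf1 itself varied by 0.32. The part of proliferation in the changes of these members was not tested.

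Dnmt3a, a de novo methyltransferase, lies at chr12:3806007-3914443. It was at 328 and 348 CPM under the KO label, 468 and 478 under Het, 371 and 411 under WT and 429 and 339 CPM under SmoM2. Both Het-labelled libraries were above the other 6, and the KO-labelled libraries were below the Het- and WT-labelled libraries. Dnmt3a fell by 0.49 in KO- against Het-labelled libraries (SE 0.14, edgeR adjusted p 0.0479), a 1.40-fold difference. The KO-labelled libraries were male and the Het-labelled libraries female, so label and sex cannot be told apart between them. With sex as a covariate Dnmt3a was not called there. The call was lost without KO-labelled replicate 1 (-0.45, adjusted p 0.170), KO-labelled replicate 2 (-0.54, adjusted p 0.104), Het-labelled replicate 1 (-0.50, adjusted p 0.199) and Het-labelled replicate 2 (-0.49, adjusted p 0.181). With the trend over gene length removed the value was -0.19 (adjusted p 0.341), and Dnmt3a is the longest of the 10 in the authors' table at 9947 bases. In KO- and Het- against WT-labelled libraries it was -0.21 (adjusted p 0.289) and 0.28 (adjusted p 0.158). With the length trend removed the first of these was 0.23, so its direction depends on that choice, and the other was called at 0.42 (adjusted p 0.0187). The exons of Dnmt3a overlap those of the antisense gene Dnmt3aos.

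Dnmt3b, the other de novo enzyme, lies at chr2:153649450-153687730. It was at 14.2 and 18.49 CPM under the KO label, 15.8 and 19.2 under Het, 18.4 and 16.6 under WT and 15.1 and 13.5 CPM under SmoM2. Both SmoM2-labelled libraries were below both WT- and both Het-labelled libraries, and the other pairs of groups overlapped. No comparison was called, and the interval of KO- against WT-labelled libraries was -0.57 to 0.36. The ratio of Dnmt3a to Dnmt3b per length was 10.1 and 8.19 under the KO label, 12.9 and 10.8 under Het, 8.75 and 10.7 under WT and 12.4 and 10.9 under SmoM2.

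The other DNA methylation genes are mostly those that oxidise, excise or read the mark, and 10 of the 11 were tested, with Dnmt3l under the filter. In KO- against WT-labelled libraries 5 were called lower and 1 higher, with a list median of -0.52 against 0.035 over all genes. The called share of the tested genes was 60% there, beside 23.0% of all genes. It was 50% in Het- against WT-labelled libraries, beside 25.3%, and 20% in KO- against Het-labelled libraries, beside 9.43%. Tet2, an enzyme that oxidises methylated cytosine, was at 25.4 and 26.5 CPM under the KO label, 44.1 and 43.1 under Het, 59.4 and 59.8 under WT and 76.9 and 71.4 CPM under SmoM2. The groups did not overlap and lay in the order KO, Het, WT and SmoM2, from low to high, as for Hdac5. How many of all genes lay in this order was not counted. Tet2 fell by 1.20 in KO- against WT-labelled libraries (SE 0.13, edgeR adjusted p 0.000253), a call that held in all 22 alternatives. In KO- against Het-labelled libraries it fell by 0.75 (SE 0.13, adjusted p 0.0103), a call lost without Het-labelled replicate 1 (-0.73, adjusted p 0.100) and with the length trend removed (-0.47, adjusted p 0.0573). Tet3, of the same family, was at 217 and 263 CPM in the KO-labelled and 405 and 450 CPM in the WT-labelled libraries and fell by 0.83 (SE 0.15, adjusted p 0.00370). It was not called with the length trend removed (-0.36, adjusted p 0.0562) or with the stress score (-0.73, adjusted p 0.127). Zbtb38, which binds methylated DNA, was at 7.96 and 12.8 CPM in the KO-labelled and 30.9 and 25.7 CPM in the WT-labelled libraries and fell by 1.44 (SE 0.23, adjusted p 0.00193). Tdg, the glycosylase that removes oxidised bases, was at 13.3 and 25.4 CPM in the KO-labelled and 48.8 and 84.1 CPM in the WT-labelled libraries. It fell by 1.77 (SE 0.40, adjusted p 0.0101), a call lost without KO-labelled replicate 1 (-1.38, adjusted p 0.102), and without that library 3 of the list were called. The gene of this list called higher was Uhrf2, the paralogue of Uhrf1, at 0.37 (adjusted p 0.0398), a value named after it was seen. In Het- against WT-labelled libraries 4 were called lower and 1 higher, with a median of -0.19, and 1 was called without Het-labelled replicate 2. Uhrf2 was at 151 and 141 CPM in the Het-labelled and 95.1 and 92.9 CPM in the WT-labelled libraries and rose by 0.64 (SE 0.11, adjusted p 0.00295).

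Over the 6 pathway lists together, 23 of 69 tested genes were called in KO- against WT-labelled libraries, 20 in Het- against WT-labelled and 13 in KO- against Het-labelled libraries. These are 33.3%, 29.0% and 18.8% of the lists, beside 23.0%, 25.3% and 9.43% of all genes. The lowest counts with 1 library left out were 11 without KO-labelled replicate 1, 8 without Het-labelled replicate 2 and 0 without Het-labelled replicate 1. In SmoM2- against WT-labelled libraries edgeR and DESeq2 called none of the 69, and 4 had an unadjusted edgeR p under 0.05. Of all genes edgeR called 0.223%, and 7.70% had such an unadjusted p. Immediate early genes, which rise when tissue is dissociated, differed with the labels. Their summed level was 5878 and 7801 CPM under the KO label and 10275 and 10116 CPM under Het. It was 3890 and 4166 CPM under WT and 4292 and 6259 CPM under SmoM2. Beside 11.6% and 13.1% of all genes, 8 of these 12 genes were called higher in KO- and 10 of them in Het- against WT-labelled libraries. With a score of these genes as a covariate, Ezh2 was at 0.85 (adjusted p 0.0809) and Uhrf1 at 0.26 (adjusted p 0.623) in KO- against WT-labelled libraries. In Het- against WT-labelled libraries Suz12 was then at -0.90 (adjusted p 0.159), Dnmt1 at 0.25 (adjusted p 0.747) and Uhrf1 at 0.048 (adjusted p 0.970), and Dnmt3a was at -0.63 (adjusted p 0.0874) between KO- and Het-labelled libraries. With that covariate 8 genes of the 6 lists were called in KO- against WT-labelled libraries, 0 in Het- against WT-labelled and 4 in KO- against Het-labelled libraries. None of the 6 member calls was kept with it, and the score leaves fewer degrees of freedom and moves with the groups.

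**Figure D5:**
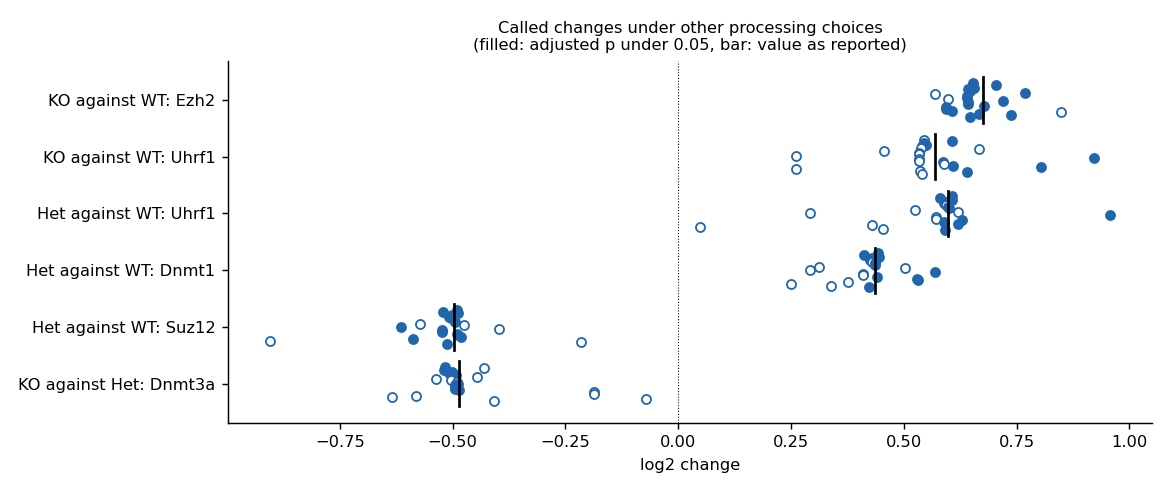
Log2 change of the 6 called member changes under each other processing choice, with a point for each, filled for an adjusted p under 0.05, and a bar for the value as reported. All points of a change lie on its side of 0, and Ezh2 in KO against WT is filled in 19 of 22 while Uhrf1 in the same comparison is filled in 9 of 22.

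The genes with the patterns most like the other members were named by the same distance over the 8 libraries. They were Mrpl49 (0.093) and Ska1 (0.11) for Ezh2, Atad1 (0.033) and Ppm1a (0.034) for Suz12, Trim28 (0.067) and Ift80 (0.081) for Dnmt1, and Myo9b (0.048) and Pcdhb20 (0.049) for Dnmt3a. Hdac2 was nearest to Ctnnbl1 (0.040) and Ivns1abp (0.040), Hdac1 to Xylb (0.053) and Brcc3 (0.056), Eed to Immt (0.046) and Vcp (0.047), Ezh1 to Mon1b (0.073), and Dnmt3b to Kif15 (0.069) and Epb41l5 (0.082). These distances are small where a member itself varied little, as Eed did at 0.072, and they share libraries and depth, so they describe these 8 libraries.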

How the data were processed

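RNA was sequenced from 8 libraries of sorted cells, and groups and replicate numbers come from the labels. Per the file headers, the deposited table holds raw read counts per gene and the authors' RPKM values with a gene length. Per the submitters' processing notes, STAR, featureCounts and Subread were used with mm10; versions, annotation and strand setting are not given in the sources used here. The listed counts made up 81.1% to 83.3% of the library totals implied by RPKM.

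The test on counts was run in edgeR 4.0.16 (R 4.3.3). The function filterByExpr left 13459 of 24539 genes, libraries were scaled by TMM, and 1 quasi-likelihood model gave each group a mean, with 4 residual degrees of freedom shared by all groups and a biological coefficient of variation of 13.5%. P-values were adjusted by the Benjamini-Hochberg method, and all tests were two-sided. CPM are at the scaled library total, and log2 CPM have a prior count of 2. An exact permutation test of 2 against 2 libraries cannot go below p = 0.333, so none was used. The procedure was tested on simulated data.

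The members, the pathway lists and the tests were chosen with earlier results of these data known. The text names Smo, the 10 members, PRC2 partners, H3K27 demethylases, histone deacetylases, up to 4 called genes of each other list and comparison with the largest change (where the mean log2 CPM was 1 or more) and the 2 nearest genes of each member. Coordinates are GENCODE vM21 (GRCm38) and promoters RefSeq (GRCm38.p6), the build of mm10. Mideas was matched by its older symbol Elmsan1. Replicates differed by more than sampling noise, with chi-square per degree of freedom between 5.13 and 13.3. Alternatives were other scalings, filters, DESeq2 1.42.0, subsets of libraries, a replicate block, length and GC trends, sex and a stress score. Protein sequences were not used here. Of the genes that the naming rule gives, 2 are not reported here.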

Additional observations from a re-analysis of the deposited data

How the results depend on the processing

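The 6 member calls kept their direction in every alternative run, which were 22 for KO- against WT-labelled libraries and 21 for the other comparisons with a call. They passed the threshold in 19 (Ezh2) and 9 (Uhrf1) of 22 in KO- against WT-labelled, in 16 (Suz12), 12 (Dnmt1) and 12 (Uhrf1) of 21 in Het- against WT-labelled, and in 10 of 21 (Dnmt3a) in KO- against Het-labelled libraries. The replicate numbers are not stated to mark a shared litter, and the deviations of same-numbered libraries correlated at between -0.061 and 0.39, so the numbers were not taken to pair the samples. With the replicate block the counts of called genes were 3342, 3685, 54 and 1527 (KO against WT, Het against WT, SmoM2 against WT, KO against Het, in this order here and below), against 3100, 3402, 30 and 1269 without it, and the block changed no member call in these comparisons, while in the test over the 4 groups it added Uhrf1 (adjusted p 0.0223). With the stress score they were 798, 98, 10 and 462, and 2902 over the 4 groups against 5514. In SmoM2 against WT 16 genes were called with library totals, 76 with DESeq2, 356 with no filter, 8 with only the libraries compared, 54 with sex as a covariate and 19 with GC and length trends removed. In KO against Het 2217 were called with no filter, 610 with the length trend removed and 343 with GC and length trends removed. Leaving out 1 library gave 1305 to 2924, 1411 to 3616, 8 to 81 and 36 to 1472 genes, and 3656 to 5510 over the 4 groups. The larger losses were in KO against WT without KO-labelled replicate 1 (1305), WT-labelled replicate 1 (2038) or 2 (1955), in Het against WT without Het-labelled replicate 1 (1468) or 2 (1411) or WT-labelled replicate 2 (2089), in KO against Het without KO-labelled replicate 1 (377) or 2 (551) or Het-labelled replicate 1 (36) or 2 (365), and over the 4 groups without Het-labelled replicate 1 (3656). In SmoM2 against WT the count was 81 without WT-labelled replicate 2, and between 8 and 10 when WT-labelled replicate 1 or any KO- or SmoM2-labelled library was left out. A group left with 1 library was assumed to vary like the others. The split of higher and lower genes in KO against Het was 583 and 686, but 844 and 548 with library totals, 937 and 511 with the totals implied by RPKM and 502 and 942 with DESeq2. In SmoM2 against WT it was 21 and 9, but 9 and 7 with library totals and 16 and 11 with the totals implied by RPKM. The causes were not tested.

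In KO against WT 1 member was called in place of 2 with DESeq2 size factors, with only the libraries compared, with GC and length trends removed and without the Het-labelled libraries, 0 with the stress score, and 0 to 2 when 1 library was left out. In Het against WT 1 in place of 3 was called with only the libraries compared and with sex as a covariate, 0 with the stress score and with GC and length trends removed, and 0 to 3 when 1 library was left out. In KO against Het 0 in place of 1 were called with library totals, with the totals implied by RPKM, with the length trend removed (with and without the replicate block), with sex, with the stress score, with GC and length trends removed, and 0 to 1 when 1 library was left out. Over the 4 groups 4 members in place of 2 were called with library totals, DESeq2, no filter, the length trend removed and the totals implied by RPKM, 5 with the replicate block and the length trend removed, and 1 with the stress score and with GC and length trends removed. In Het against WT 4 members were called with the length trend removed, with and without the replicate block. In KO against WT 3 were called with no filter, with the stricter filter and with the replicate block and the length trend removed.

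The reversals were in values that were not called, and for leaving out 1 library the lowest and highest values are given. In KO against WT, Eed was at -0.021 with DESeq2 and with its size factors, -0.018 with no filter, -0.030 with the stricter filter, -0.027 with only the libraries compared, -0.026 without the Het-labelled libraries, -0.17 with the length trend removed (with and without the replicate block), -0.12 with the stress score, -0.11 with GC and length trends removed and -0.056 to 0.031 when 1 library was left out. Hdac1 in the same settings was at -0.012, -0.0083, -0.020, -0.018, -0.017, -0.17, -0.23, -0.17 and -0.14 to 0.14. Ezh1 was at -0.24 to 0.024 when 1 library was left out and 0.47 with the stress score, Dnmt3b at -0.32 to 0.072, and Dnmt3a at 0.23 with the length trend removed (with and without the replicate block) and 0.15 with GC and length trends removed. In Het against WT, leaving out 1 library put Ezh1 at -0.085 to 0.13, Eed at -0.21 to 0.011, Hdac1 at -0.27 to 0.042, Hdac2 at -0.066 to 0.018 and Dnmt3b at -0.17 to 0.095. GC and length trends removed put Eed at 0.075 and Hdac2 at 0.23, and Dnmt3b was at 0.068 with sex and 0.0088 with the stress score. In SmoM2 against WT, leaving out 1 library put Ezh1 at -0.28 to 0.23, Suz12 at -0.058 to 0.19, Hdac1 at -0.20 to 0.11, Hdac2 at -0.16 to 0.069, Dnmt1 at -0.0067 to 0.30, Dnmt3a at -0.19 to 0.14 and Uhrf1 at -0.054 to 0.65, and with the stress score Ezh1 was at 0.24, Suz12 at -0.054 and Dnmt3a at 0.060. In KO against Het, Eed was at -0.044 to 0.18 when 1 library was left out, -0.027 with the length trend removed, -0.029 with the replicate block and the length trend removed and -0.18 with GC and length trends removed. Hdac1 was at -0.037 to 0.24, and at -0.0070 and -0.023 with the last 2 of these choices. GC and length trends removed put Hdac2 at -0.029, Dnmt1 at 0.048, Dnmt3b at 0.069 and Uhrf1 at 0.081. Leaving out 1 library put Dnmt3b at -0.31 to 0.083 and Uhrf1 at -0.14 to 0.068, and Uhrf1 was at 0.026 with library totals, 0.048 with the totals implied by RPKM, 0.37 with sex and 0.21 with the stress score.

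GC and length trends, the totals implied by RPKM and the fit without the Het-labelled libraries were chosen after seeing the data. The ratios did not depend on library totals or on use of the RPKM values. A fit of only the libraries compared gives no value over the 4 groups, and the fit without the Het-labelled libraries covers KO and SmoM2 against WT. The precision is that of 2 libraries a group, and the KO-labelled libraries were the shallowest.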

Other observations

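Between the SmoM2 and WT labels no gene of the pathway lists was called, beside 0.223% of all genes. Beside 7.70% of all genes, 4 genes of the lists had an unadjusted edgeR p under 0.05. These genes were picked after their values were seen. Hdac4, a deacetylase of class IIa, was at 104 and 83.1 CPM in the SmoM2-labelled and 65.5 and 59.5 CPM in the WT-labelled libraries, a log2 difference of 0.58 (edgeR adjusted p 0.162). Tet2 differed by 0.31 (adjusted p 0.506), Kdm1a, a histone demethylase of CoREST, by 0.31 (adjusted p 0.632), and Bmi1, a PRC1 subunit, by -0.28 (adjusted p 0.642). In the KO-labelled libraries Hdac4 was at 45.6 and 40.5 CPM and Bmi1 at 79.9 and 97.4 CPM, against 88.3 and 91.1 CPM for Bmi1 in the WT-labelled libraries, with which it overlapped.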
